A study of Mus musculus with 41 samples.

Results

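The 2 pooled lists of MLL3/4 CNR peaks compared here came from cultured mouse epidermal stem cells (EpdSCs) with dHMG-SOX9 induced by doxycycline (DOX) and from cultured EpdSCs without DOX. In CUT&RUN (CNR), a nuclease tied to an antibody releases the DNA at which a protein sits, and these short fragments are sequenced. The no-DOX list held 33975 peaks and the dHMG-SOX9 list 23301, together 57276 of the 215893 peaks in the pooled lists read. A no-DOX peak with no dHMG-SOX9 peak overlapping it by at least 1 bp was called lost, a dHMG-SOX9 peak with no overlapping no-DOX peak was called gained, and all others were called kept.

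Each list stood for 2 of the 41 samples of the series, 4 samples in all. Both groups were male CD1 keratinocytes from back skin, cultured from newborn pups and, by the study's methods, carrying rtTA under the Krt14 promoter, which is active in basal epidermal cells. The no-DOX cells had the genotype K14rtTA; TRE-myc-Sox9 and thus carried wild-type MYC-tagged Sox9 that was not induced. The dHMG-SOX9 cells had the genotype K14rtTA; TRE-myc-Sox9noHMG and received DOX at 1 µg per ml, which switches on a MYC-tagged SOX9 that lacks the DNA-binding HMG domain. The methods state that the SOX9 variants were brought in by lentivirus and the cells selected with puromycin. The length of DOX treatment was not given in the labels. The cell line and DOX changed together between the groups, so their parts in any difference cannot be told apart. With 1 pooled list per group the variation among replicates is unknown, and the groups were not compared by a test. Shares are given with 95% Wilson confidence intervals (CI), and differences of shares with 95% intervals, and both cover counting error only.

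MLL3 and MLL4 (KMT2C and KMT2D) are histone methyltransferases that place monomethylation on histone H3 lysine 4 at enhancers, and they reach DNA through transcription factors and their partners rather than through a sequence of their own. SOX9 is a pioneer factor of hair follicle stem cells. It recognises DNA with its HMG domain and contacts co-factors with its transactivation domain, so that a SOX9 without the HMG domain can still meet co-factors although it cannot read a SOX site. AP1 factors and p63, encoded by Trp63, are main occupants of epidermal enhancers.

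The windows printed here let the DNA under lost and gained MLL3/4 peaks be read directly. Each is 101 bp of the plus strand of mm10, read from the RefSeq copy of GRCm38.p6 and centred on the maximum of the peak, and capitals mark a word, that is a short consensus sequence on either strand. The first 3 are the lost peaks of highest total signal. Trps1, a GATA-type zinc finger repressor, and Carnmt1, a carnosine methyltransferase, lie nearest to peaks with an AP1 word (TGACTCA or TGAGTCA), whereas the window nearest to the start of Tfpi, an inhibitor of coagulation, lay in an intron of the long noncoding RNA Gm13710 and held none of the 13 words sought.
near Tfpi, lost, chr2:84511665-84511765: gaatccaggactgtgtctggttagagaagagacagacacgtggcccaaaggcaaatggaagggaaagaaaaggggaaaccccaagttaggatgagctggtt
Trps1 intron, lost, chr15:50704068-50704168: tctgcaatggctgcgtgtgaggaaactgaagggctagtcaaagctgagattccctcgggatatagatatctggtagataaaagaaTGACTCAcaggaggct
near Carnmt1, lost, chr19:18660690-18660790: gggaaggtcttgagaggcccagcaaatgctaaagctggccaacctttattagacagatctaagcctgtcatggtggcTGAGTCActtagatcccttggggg

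The next 3 are the gained peaks of highest total signal, and none of them held any of the 13 words. They lay in introns of Dpp3, a dipeptidyl peptidase, Abr, and Papln, an extracellular matrix protein.
Dpp3 intron, gained, chr19:4924335-4924435: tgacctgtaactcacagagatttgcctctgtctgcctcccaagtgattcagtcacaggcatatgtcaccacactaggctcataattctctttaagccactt
Abr intron, gained, chr11:76464900-76465000: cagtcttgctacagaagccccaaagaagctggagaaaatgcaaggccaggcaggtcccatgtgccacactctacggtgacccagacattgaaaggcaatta
Papln intron, gained, chr12:83768117-83768217: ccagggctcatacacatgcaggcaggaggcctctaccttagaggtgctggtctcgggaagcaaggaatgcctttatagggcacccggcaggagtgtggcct

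The words that the results turn on are shown in high-ranking peaks of each kind, chosen after their values were seen. They are a lost and a kept peak with a TP63 word, a lost peak with a CEBP word (TTGCNNAA) and a lost peak with a SOX word (spelled CCATTGT in its first form, CCTTTGT in another, GCATTGT in the next and GCTTTGT in the last).
Sntg1 intron, lost, TP63 word, chr1:9133151-9133251: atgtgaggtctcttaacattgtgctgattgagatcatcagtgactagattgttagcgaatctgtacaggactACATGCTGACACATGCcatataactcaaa
near Pcgf5, kept, TP63 word, chr19:36451337-36451437: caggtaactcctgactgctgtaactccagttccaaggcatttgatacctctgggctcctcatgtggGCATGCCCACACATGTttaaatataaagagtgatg
Ptk2 intron, lost, CEBP word, chr15:73403993-73404093: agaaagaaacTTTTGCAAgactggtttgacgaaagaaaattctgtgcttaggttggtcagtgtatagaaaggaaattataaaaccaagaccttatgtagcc
Car12 intron, lost, SOX word, chr9:66731339-66731439: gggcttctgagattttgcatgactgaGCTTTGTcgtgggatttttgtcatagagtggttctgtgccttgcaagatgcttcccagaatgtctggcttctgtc

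The cells' label was first set against marker genes. All 6 keratinocyte markers had no-DOX MLL3/4 peaks nearest to their starts, 47 peaks in total, which ranged from 4 for Krt14 to 12 for Trp63. Of these 47 peaks 11 were lost, 23.4% (95% CI 13.6 to 37.2), beside 43.5% of all no-DOX peaks. They ranked high, with a median percentile (the share of the list with a lower total signal) of 75.5, and against other peaks of their rank the difference was -7.59 points (95% interval -15.9 to 0.704). Fibroblast markers had 5 peaks, with 0 at Col1a1, Pdgfra and Lum, and immune markers had 5 over 4 genes. Melanocyte markers had 5 peaks, all nearest to Mitf, with 0 at Dct, Pmel and Tyr, and endothelial markers had 15, of which 9 were nearest to Pecam1 and 0 to Cdh5. A peak of MLL3/4 is not a measure of expression, and the part of other cell types was not tested.

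The no-DOX list is longer than the dHMG-SOX9 list, and most of what it lost was of low signal. Of the 33975 no-DOX peaks, 14789 were lost, which is 43.5% (95% CI 43.0 to 44.1). Of the 23301 dHMG-SOX9 peaks, 3894 were gained, which is 16.7% (95% CI 16.2 to 17.2). In lists cut to equal size, with the 23301 peaks of highest total signal in each, 28.9% of no-DOX peaks were lost and 27.6% of dHMG-SOX9 peaks were gained, which lists of equal size bring close together by construction. The excess of losses over gains in the whole lists and their unequal length cannot be told apart. Of all no-DOX peaks 56.5% had a partner with dHMG-SOX9, beside 55.7% with dTA-SOX9 and 18.0% with WT-SOX9, both induced by DOX. By its label dTA-SOX9 lacks the transactivation domain. The dTA-SOX9 and WT-SOX9 lists held 25948 and 10543 peaks. Peaks without DOX covered 11.3 Mb and those with dHMG-SOX9 7.38 Mb. The median width was 296 bp and 283 bp, and the median of the maximum signal, in whole counts of overlapping fragments, was 13 and 12. The depth behind the lists is unknown, since the signal was not scaled.

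Peaks of low total signal (the sum of the signal over a peak's bases) had a partner least often. Both lists end at a signal threshold, so peaks just above it are expected to lack a partner most often in any other list. Each list was cut by total signal into 10 rank bins of equal size. In the no-DOX bin with the highest total signal, 37 of 3398 peaks were lost, or 1.09% (95% CI 0.791 to 1.50). In the fifth bin 40.6% were lost and in the last bin 81.3%, or 2763 of 3397. Gained peaks showed the same order. None of the 2331 dHMG-SOX9 peaks in the first bin was gained, which allows a share of up to 0.165% by the upper Wilson bound. In the fifth bin 8.97% were gained and in the last bin 43.6% (95% CI 41.6 to 45.6). The median lost peak ranked 24262 of 33975, and the median kept peak 10460. Lost peaks had a median width of 259 bp and a median maximum signal of 10, against 337 bp and 18 for kept peaks, and gained peaks 240 bp and 9.

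**Figure D1:**
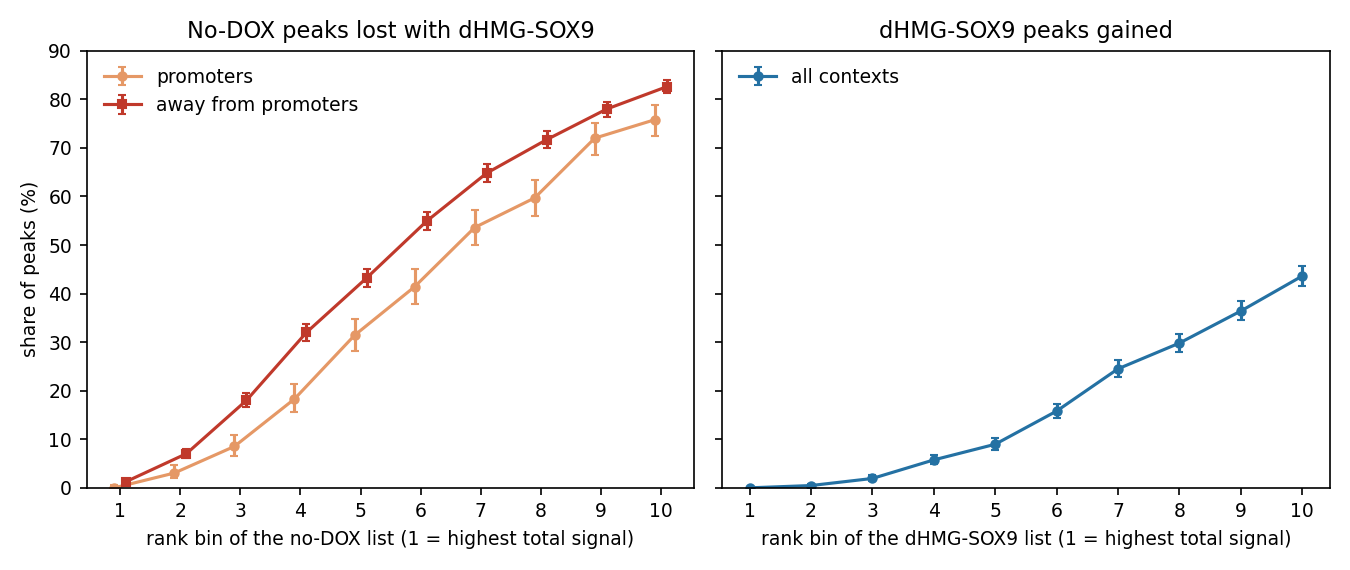
Share of peaks (%) without an overlapping peak in the other list, by rank bin of total signal within a list, with 95% Wilson intervals as bars. Left, no-DOX peaks lost at promoters and away from them, where the promoter points lie lower in each bin and both end above 75% in the last. Right, dHMG-SOX9 peaks gained, from 0% in the first bin to 43.6% in the last.

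Among the 37 lost peaks of the first bin none lay at a promoter. Of these 37, 29 had a peak in the list of dTA-SOX9 (by its label SOX9 without its transactivation domain). In EpdSCs sorted from skin before DOX (D0) 22 had one, and in the list of WT-SOX9 with DOX 10. All 37 had a peak in the no-DOX list of replicate 1 alone, a sample that is also in the pooled list. By the fourth bin 991 of 3397 peaks were lost.

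Most lost peaks had no dHMG-SOX9 peak close by. A dHMG-SOX9 peak lay within 1 kb of 15.3% (95% CI 14.8 to 15.9) of lost peaks, and 53.9% (95% CI 53.1 to 54.7) had none within 10 kb. The median distance was 12468 bp. For gained peaks the median distance to a no-DOX peak was 7061 bp, and 23.1% (95% CI 21.8 to 24.4) had one within 1 kb. The no-DOX list is the longer one, which shortens such distances by itself, so the 2 medians were not compared.

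Replicate 1 without DOX had a list of its own, the only list of a single sample used here. Its sample is also part of the pooled no-DOX list, so lost and kept peaks overlap it in part by construction. Gained peaks are by definition absent from that pool, which lowers their share by construction. Of lost peaks 86.8% (95% CI 86.3 to 87.4) had a replicate 1 peak, of kept peaks 97.7% (95% CI 97.5 to 97.9), and of gained peaks 25.7% (95% CI 24.3 to 27.1). Hence 999 of the 3894 gained peaks overlapped a peak that was called without DOX in replicate 1. In the pooled no-DOX list, 38.6% (95% CI 38.1 to 39.1) of peaks had exactly the borders of a replicate 1 peak, 36.4% of lost and 40.3% of kept peaks. The replicate 1 values are scaled and count reads, so their size was not set against that of the pooled lists.

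Promoter peaks, whose maximum lay within 1 kb of an annotated transcription start, were lost less often than others. Of the 6738 no-DOX promoter peaks 37.4% (95% CI 36.3 to 38.6) were lost, of 14250 intronic peaks 43.8% (95% CI 43.0 to 44.6), of 991 exonic peaks 45.0% (95% CI 41.9 to 48.1) and of 11996 intergenic peaks 46.5% (95% CI 45.6 to 47.4). The difference held at equal rank. In each rank bin the share lost was lower at promoters than away from them, from 0 of 562 against 37 of 2836 in the first bin to 75.8% against 82.6% in the last. In the fourth bin it was 18.3% (95% CI 15.6 to 21.3) at promoters and 32.0% (95% CI 30.2 to 33.7) elsewhere, a difference of 13.7 points (95% CI 10.2 to 16.9). With the rank bin held fixed the difference over the whole list was -9.15 points (95% CI -10.2 to -8.07) for promoters. Gained peaks showed no such difference, with 17.4% of promoter peaks gained (95% CI 16.4 to 18.4) and 0.298 points (95% CI -0.763 to 1.36) between promoters and other places at fixed rank bin.

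The distance to the nearest start of a protein-coding gene followed the same order. Of peaks within 1 kb of such a start 37.1% were lost, between 1 and 5 kb 2192 of 5350, between 5 and 20 kb 41.8%, between 20 and 50 kb 44.0% and beyond 50 kb 52.0% (95% CI 50.9 to 53.2). Promoters made up 17.1% (95% CI 16.5 to 17.7) of lost peaks, 22.0% (95% CI 21.4 to 22.6) of kept and 23.1% (95% CI 21.8 to 24.4) of gained peaks. Peaks with no other no-DOX peak within 10 kb were lost in 50.9% of cases (95% CI 50.0 to 51.8) against 39.4% of the rest, which left 3.01 points (95% CI 2.07 to 3.95) at fixed rank bin.

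Among chromosomes the lost share was lowest, at 37.8% (95% CI 35.1 to 40.5) on chromosome 19 and highest, at 54.1% (95% CI 50.2 to 57.9), on the X. Chromosomes 13 and 14 stood next to the X with 48.6% and 48.3%. The 649 no-DOX peaks on the X also ranked lower, with a median percentile of 42.6, and at fixed rank bin 5.54 points (95% CI 2.27 to 8.82) remained. Both groups are labelled male. The gained share varied from 13.9% on chromosome 10 to 20.5% on chromosome 17.

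Sequence words were counted in windows of 101 bp around each maximum, on both strands, against windows of the same length 1 kb to each side. The AP1 word was the commonest of the 13 in lost, kept and gained windows. It stood in 22.1% (95% CI 21.5 to 22.8) of lost windows, 23.2% (95% CI 22.6 to 23.8) of kept and 18.2% (95% CI 17.0 to 19.4) of gained windows, and in 2.11%, 2.00% and 2.25% of their controls. The order of lost and kept windows turned among peaks with a total signal above 1800, where lost windows held it in 24.7% (95% CI 23.8 to 25.7) and kept windows in 22.9% (95% CI 22.0 to 23.7) of cases. At fixed rank bin the lost share of no-DOX peaks with the word minus that of peaks without it was 0.192 points (95% CI -0.839 to 1.22). For the gained share of dHMG-SOX9 peaks the same difference was -3.52 points (95% CI -4.52 to -2.52), so peaks with an AP1 word were gained less often.

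The SOX word, which the HMG domain reads, was about as common in each of the 3 sets. It was in 6.71% (95% CI 6.32 to 7.13) of lost, 6.58% (95% CI 6.24 to 6.94) of kept and 7.09% (95% CI 6.32 to 7.94) of gained windows, and in 6.44%, 6.07% and 6.11% of controls. The difference in lost share between peaks with and without it was 0.183 points (95% CI -1.58 to 1.95) at fixed rank bin. The 2256 no-DOX peaks with a SOX word were kept in 56.0% of cases with dHMG-SOX9, in 54.5% with dTA-SOX9 and in 24.3% with WT-SOX9, where all 33975 no-DOX peaks were kept in 56.5%, 55.7% and 18.0%. These 3 comparisons share the no-DOX list, so they are given only side by side.

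Peaks with a TP63 or a CEBP word were lost more often than others of their rank. The TP63 word, the paired half-site read by the p53 family, was rare but far above its controls, in 42 of 14789 lost windows (0.284%, 95% CI 0.210 to 0.384) and 23 of 19186 kept windows (0.120%, 95% CI 0.0799 to 0.180), with controls of 0.0135% and 0.0156%. Of the 65 no-DOX peaks with it 64.6% (95% CI 52.5 to 75.1) were lost, 18.3 points (95% CI 9.76 to 26.9) more than at peaks without it in the same bins, an interval that is too narrow with so few peaks per bin. Of these 65 peaks 35.4% were kept with dHMG-SOX9, 43.1% with dTA-SOX9 and 16.9% with WT-SOX9. The CEBP word was in 6.32% (95% CI 5.94 to 6.73) of lost, 5.78% (95% CI 5.45 to 6.11) of kept and 3.90% (95% CI 3.34 to 4.56) of gained windows, with controls of 4.21%, 3.97% and 3.84%, so that gained windows held it about as often as their controls. Peaks with the CEBP word were lost 4.00 points (95% CI 2.21 to 5.80) more often at fixed rank bin. GC content and promoter context were not held fixed for any word. C/EBP factors act in keratinocyte differentiation. The windows in Sntg1 and Ptk2 printed above are the highest-ranked lost peaks with these words, at ranks 5306 and 3024. Their peaks held total signals of 4519 and 6382, and the Sntg1 peak had a peak in the dTA-SOX9 list while the Ptk2 peak had none.

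Words of GC-rich promoters stood on the other side. At fixed rank bin the lost share differed by -10.8 points (95% CI -13.1 to -8.54) for the KLF and SP word (GGGCGGG) and by -10.2 points (95% CI -12.9 to -7.48) for the NFY word (CCAATCA). The KLF and SP word was in 3.37% (95% CI 3.09 to 3.67) of lost, 4.33% of kept and 4.83% of gained windows, against controls of 0.906%, 1.18% and 1.48%. The ETS word (CCGGAAG) differed by -5.63 points (95% CI -9.50 to -1.76) at fixed rank bin, but without regard to rank its peaks were lost in 47.0% (95% CI 42.5 to 51.5) of cases against 43.5% of those without it. These peaks ranked lower, with a median percentile of 39.4. For windows with a GC content of 50% or more the difference was -8.52 points (95% CI -9.41 to -7.63). The differences for the words AACCACA (RUNX), GGAATGT (TEAD), GCCNNNGGC (AP-2), TGACGTCA (CRE), AGATAAC or its variant AGATAAG (both read by GATA factors) and for the CTCF word had intervals that included 0. In all, 25 features, of which presence on other lists made up the rest, were compared with no adjustment for their number. The 1328 no-DOX peaks with the KLF and SP word were kept in 62.5% with dHMG-SOX9, in 45.3% with dTA-SOX9 and in 17.1% with WT-SOX9, and the 6738 promoter peaks in 62.6%, 52.1% and 18.2%.

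**Figure D2:**
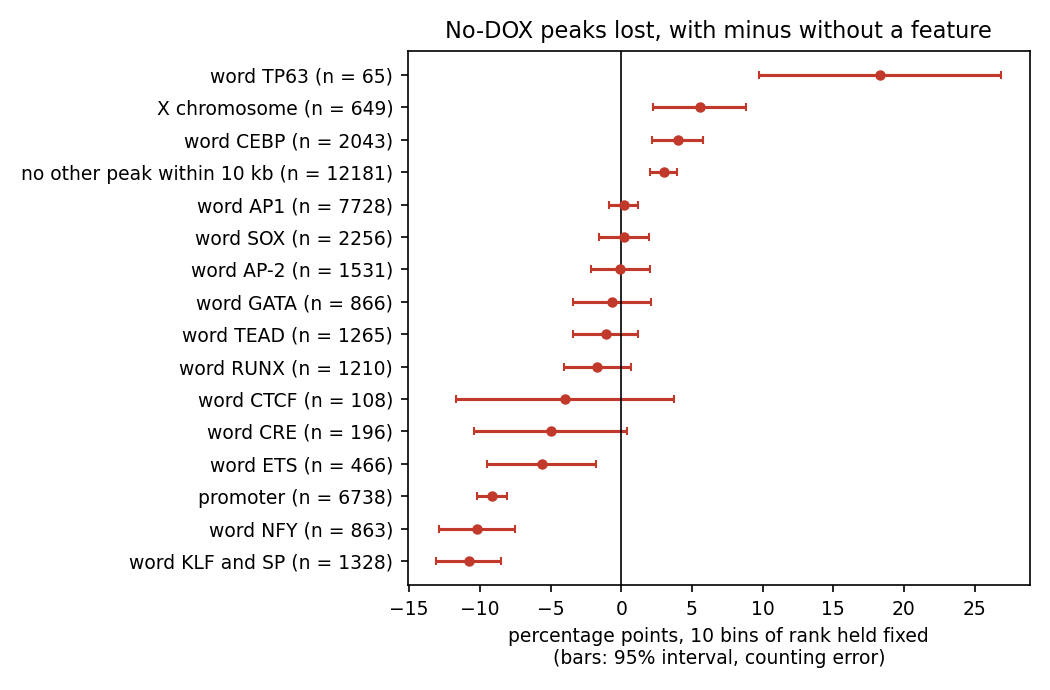
Difference in the share of no-DOX peaks lost between peaks with and without a feature (percentage points), with the rank bin of total signal held fixed, for promoters, isolated peaks, the X chromosome and 13 sequence words; bars are 95% intervals over peaks, and n is the number of peaks with the feature. TP63 words lie farthest to the right at 18.3 points, KLF and SP words farthest to the left at -10.8, and AP1 and SOX words at 0.192 and 0.183.

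The lists were then looked up in CNR of other samples. EpdSCs sorted from skin at D0 had an MLL3/4 peak at 31.8% (95% CI 31.0 to 32.5) of lost, 54.5% (95% CI 53.8 to 55.2) of kept and 25.3% (95% CI 24.0 to 26.7) of gained peaks. The same peaks moved by 10 kb gave 3.12%, 4.54% and 2.99%. Seen from the other side, 12.6% of the 37072 D0 peaks lay on lost peaks, 28.2% on kept and 2.66% on gained peaks. At week 1 (W1) and week 2 (W2) of SOX9 induction in skin the shares were 24.9% and 25.1% of lost, 46.6% and 46.7% of kept, and 18.4% and 18.6% of gained peaks. High rank and presence in skin went together, with a median percentile of 63.6 for no-DOX peaks that had a D0 peak. At fixed rank bin they were lost less often than peaks without one, by -6.93 points (95% CI -7.87 to -5.99).

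The MYC-tag lists come from an antibody to the tag of the transgenic SOX9, and the list without DOX, when the transgene is not induced, is its control. MYC-tag CNR of dHMG-SOX9 cells gave 3980 peaks, which lay on lost MLL3/4 peaks in 5.70% (95% CI 5.02 to 6.47), on kept peaks in 46.4% (95% CI 44.8 to 47.9) and on gained peaks in 1.66% (95% CI 1.31 to 2.10) of cases. The 2242 peaks of the control list lay on lost peaks in 7.14% (95% CI 6.14 to 8.28), on kept peaks in 64.2% (95% CI 62.2 to 66.2) and on gained peaks in 1.56% (95% CI 1.12 to 2.16) of cases. The first 2 of these shares were higher in the control than with dHMG-SOX9. In turn 1.53% (95% CI 1.34 to 1.74) of lost, 9.08% of kept and 1.69% (95% CI 1.33 to 2.15) of gained peaks had such a peak, where moving them by 10 kb left 0.189%, 0.464% and 0.193%. The control list had 1.09% (95% CI 0.934 to 1.27), 7.07% (95% CI 6.71 to 7.44) and 0.899% (95% CI 0.647 to 1.25). Of the 3894 gained peaks 66 had a dHMG-SOX9 MYC-tag peak and 35 one in the control list, which is shorter. Peaks of WT-SOX9 were found at 2.09% of lost, 7.74% of kept and 3.47% of gained peaks, and those of dTA-SOX9 at 1623 of 14789 lost, 31.3% of kept and 11.2% of gained peaks.

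The place of kept peaks in the 2 lists can be read only relative to each other. Over the 19186 no-DOX peaks with a partner, the percentile in the dHMG-SOX9 list minus that in the no-DOX list had a median of -5.91 (quartiles -21.4 and 3.49), but a shared peak gets a lower percentile in a shorter list without any change. With the 23301 peaks of highest total signal in each list, ranked anew, the median over 16559 pairs was 0.502 (quartiles -11.4 and 13.0), and 51.9% of them stood higher with dHMG-SOX9. Ranking lists of equal size brings this value near 0 by construction, so a general rise or fall at kept peaks cannot be read from ranks. The median was 3.48 at promoters and -0.320 at intergenic peaks in lists of equal size, and -3.83 and -6.81 in the whole lists, so promoters stood higher relative to intergenic peaks in both. The ranks correlated with a Spearman coefficient of 0.690 across the 19186 pairs, which are not independent replicates.

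**Figure D3:**
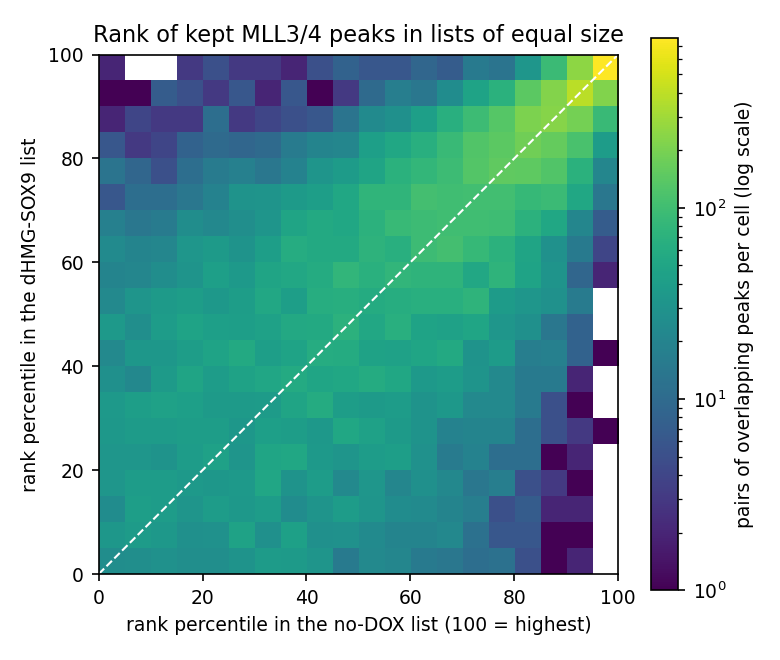
Rank percentile of 16559 kept no-DOX peaks in the no-DOX list (horizontal) and of their strongest partner in the dHMG-SOX9 list (vertical), in lists of equal size, as counts per cell of 5 by 5 percentiles on a log colour scale. The dashed line marks equal rank; pairs crowd in the top right corner and lie on both sides of the line, with a median difference of 0.502.

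Single kept peaks stood far apart in rank. Near Slpi, an antiprotease of epithelia, the promoter peak at chr2:164356235-164357177 had a total signal of 8312 without DOX, rank 1787, and 817 with dHMG-SOX9, rank 23122 of 23301. Its window is shown at the end of this paragraph. Other kept peaks among those that stood lower by the most percentiles with dHMG-SOX9 lay near Ccdc91 (from 94.3 to 0.309), in Nedd4l, an E3 ubiquitin ligase (from 92.7 to 5.45), and in Acsbg1, an acyl-CoA synthetase (from 88.0 to 1.18). In the opposite direction a promoter peak of Slc25a28, which encodes a mitochondrial iron carrier, had a total signal of 883 without DOX, rank 32759, and 7034 with dHMG-SOX9, rank 1062. Peaks in Stk39, a kinase of ion transport, and Marveld3, a tight junction protein, and near Rab10, a vesicle GTPase, and Pmaip1, which encodes the pro-apoptotic protein NOXA, moved from percentiles between 4.01 and 11.2 to between 94.4 and 98.5. The no-DOX peaks of these 5 were weak, with maxima of 6 to 10. The same dHMG-SOX9 peak can be the partner of several no-DOX peaks, as at Trp63 below. A weak peak beside a stronger one can thus stand high through the partner they share. Whether this was so for these 5 was not tested.
Slpi promoter, kept, lower with dHMG-SOX9, chr2:164356587-164356687: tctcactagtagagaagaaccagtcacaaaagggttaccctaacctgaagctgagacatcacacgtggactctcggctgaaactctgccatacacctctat
Slc25a28 promoter, kept, higher with dHMG-SOX9, chr19:43675368-43675468: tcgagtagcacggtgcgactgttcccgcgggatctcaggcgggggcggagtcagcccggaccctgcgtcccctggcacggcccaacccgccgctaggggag

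The 10 lost peaks of highest total signal ranked from 727 to 2262 in the no-DOX list, and 0 of them lay at a promoter. The first, of 899 bp and 34940 bp from the start of Tfpi (chr2:84511034-84511932), had a total signal of 12151 and a maximum of 49. The second, in an intron of Trps1 (chr15:50703739-50704351), had 10783 and 44. The third, 10024 bp from the start of Carnmt1 (chr19:18660335-18661038), had 9635 and 39. The rest lay in introns of Zbtb7c, a zinc finger repressor, Vav3, Dgki, a diacylglycerol kinase, St5 and Myo1d, an unconventional myosin, and nearest to the starts of Elk4, an ETS factor, and Krt33a, a hair keratin. All 10 had a peak in the dTA-SOX9 list, 9 had one at D0 and 3 in the WT-SOX9 list. All 10 were also in the replicate 1 list, whose sample is part of the no-DOX pool. None had a dHMG-SOX9 MYC-tag peak. The dTA-SOX9 and WT-SOX9 lists are set against the same no-DOX list, so these are values of single regions and no test between SOX9 variants.

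The 10 gained peaks of highest total signal were weaker, and their ranks in the dHMG-SOX9 list ran from 2842 to 4228. The Dpp3 peak (chr19:4923794-4924451) had a total signal of 4338 and a maximum of 31, the Abr peak (chr11:76464596-76465054) 4224 and 21, and the Papln peak (chr12:83767834-83768580) 4156 and 12. Others lay nearest to the starts of Pfkfb3, a regulator of glycolysis, Id1, an inhibitor of bHLH factors, Pmepa1, a TGF-beta target, Gm33543 and Zfp648, in an intron of Ablim1, which encodes an actin-binding protein, and at an annotated promoter 14335 bp from the start of Fbxl20, an F-box gene. Of the 10, 9 had a peak in the dTA-SOX9 list, 4 in the replicate 1 list without DOX, 3 at D0, 2 in the dHMG-SOX9 MYC-tag list and 0 in the WT-SOX9 MLL3/4 list.

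Genes were next described by their peaks, each peak given to the protein-coding gene with the nearest start. Of the 10114 genes with a no-DOX peak, 2528 kept none of their peaks and 3293, or 32.6%, kept all. The genes with most lost peaks also had many peaks. Myc, the growth regulator, had 53 no-DOX peaks of which 29 were lost, Sox9 55 and 24, Foxp1, a forkhead factor, 43 and 21, Cited2, a co-activator partner of CBP and p300, 27 and 18, and Gata3, an epidermal GATA factor, 34 and 17, as many lost as near Jag1. Set against 43.5% of all no-DOX peaks, the lost share was 66.7% for Cited2 and between 43.6% and 54.7% for the other 4. Of 2175 genes with at least 5 no-DOX peaks, 25 kept none and 98 kept all. The largest without a kept peak were Zbtb7c with 13 peaks, Pkp4, a plakophilin of cell junctions, and Plcb4, a phospholipase, with 8 each, and Agtr2, an angiotensin receptor, and Tmem45b with 7 each. In the dTA-SOX9 list 3 of the 13 Zbtb7c peaks had a partner, 2 of 8 for Pkp4, 5 of 8 for Plcb4, 1 of 7 for Agtr2 and 2 of 7 for Tmem45b.

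Around Zbtb7c lay the longest row of neighbouring no-DOX peaks that were all lost. It held 18 peaks over 364 kb (chr18:75859384-76223843), of which 5 had a peak in the dTA-SOX9 list, 5 at D0 and 1 in the WT-SOX9 list. One dHMG-SOX9 peak lay within it. Their best rank was 1747 and their median percentile 47.1. The next row, of 16 peaks over 3394 kb near Flrt2, Galc and Gpr65, was of weak peaks with a median percentile of 16.8. Rows of 10 or more lost peaks numbered 25.

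Gained peaks were spread over 3034 genes, of which 1811 also lost a peak and 611 had no no-DOX peak. Most were gained near Smad7, an inhibitor of TGF-beta signalling, and Zfp608, with 6 each. Another 10 genes had 5 each, among them Ablim1, Bcar3, an adaptor of integrin signalling, Dip2b and Wnt4. Over all genes 16.7% of dHMG-SOX9 peaks were gained. Smad7 had 17 no-DOX peaks, of which 5 were lost, and 18 with dHMG-SOX9.

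The loci that the study names were read with 50 kb to each side, and their counts stand beside the 43.5% lost and 16.7% gained over all peaks. At Krt5, the basal keratin, 11 peaks without DOX and 11 with dHMG-SOX9 were called. The 7 kept ones included a cluster just upstream of the gene, where the peak at chr15:101714829-101715467 had percentiles of 91.4 and 98.6 and its neighbour 1728 bp from the start 84.0 and 89.1. The 4 lost peaks were all at or under percentile 20.7, and the 4 gained ones, between 17244 and 23608 bp from the start, were between 50.2 and 71.8. At Trp63, which encodes p63, 12 peaks were called without DOX, of which 6 were lost. Within the gene the 3 strongest no-DOX peaks (percentiles 92.8, 92.4 and 87.9) were kept at 89.6, 88.7 and 96.8. The last partner was a single dHMG-SOX9 peak (chr16:25835370-25836024) that spanned 2 no-DOX peaks, of total signals 5331 and 3799, and had 8136 itself. All 4 peaks beyond its 3' end were lost, among them one of percentile 78.5 at 250671 bp from the start, and each of the 4 had a peak in the dTA-SOX9 list. The 3 gained peaks at Trp63 were weak, with percentiles of 3.82, 8.18 and 36.8.

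At Runx1, a factor of hair follicle stem cells, 7 of 10 peaks were kept, the strongest at percentiles 95.4 and 96.9, and the 3 lost ones were between 23.2 and 37.9. The 2 gained ones had percentiles of 1.78 and 21.8. At Ctnnb1, which encodes beta-catenin, 3 of 4 were kept, the strongest at 93.3 and 94.7. At Vim, a mesenchymal intermediate filament, 3 of 4 were kept with percentiles of at most 69.4. At Gata3 2 of 3 were kept, with 93.2 and 84.0 without DOX and 89.0 and 82.7 with dHMG-SOX9, and a weak intronic peak of percentile 9.42 was lost while a weaker one of percentile 2.97 was gained close by (chr2:9879205-9879410). At each of these loci the strongest no-DOX peak was kept, as were all but 37 of the 3398 peaks in the first rank bin anywhere.

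**Figure D4:**
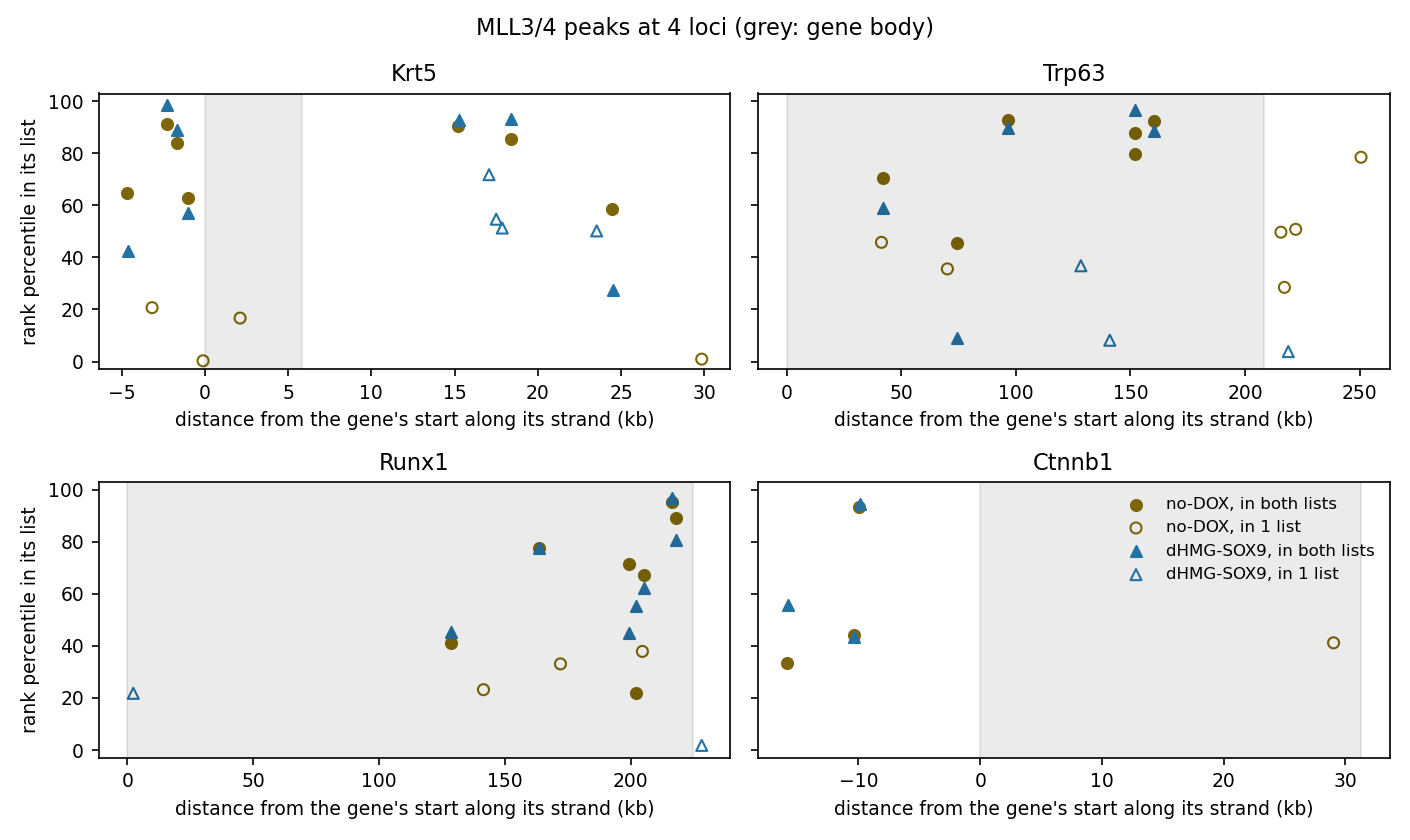
MLL3/4 peaks within 50 kb of Krt5, Trp63, Runx1 and Ctnnb1, by distance of their centre from the gene's start along its strand (kb) and by rank percentile within their list; circles are no-DOX peaks and triangles dHMG-SOX9 peaks, filled where the peak overlaps one of the other list and open where it does not. At Krt5 and Runx1 the strongest peaks are filled in both lists, and at Trp63 the 4 circles past the gene are open.

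At Sox9 itself all peaks within 50 kb lay on its 3 coding exons, and on the first 2 of these they followed the exon borders in both lists. The 3 no-DOX peaks each began 1 bp inside a coding exon and covered 99.3% of the 1521 coding bases. They had ranks of 97, 904 and 2114. With dHMG-SOX9 4 peaks covered 81.8%, with ranks of 78 and 618 on the first and second coding exons. On the third, where the no-DOX peak had a percentile of 93.8, dHMG-SOX9 had 2 weaker peaks of ranks 15863 and 12928, which began 185 and 519 bp inside the exon and had percentiles of 31.9 and 44.5. The first coding exon was covered almost whole in both lists, from chr11:112782583 or 112782586 to chr11:112783017 or 112783047. The HMG domain is encoded across the border of the first and second coding exons, and the dHMG-SOX9 list covered both exons almost whole. The peaks thus lay on the part that the label gives as deleted, against what a transgene without it would give by itself, and the label was taken as given. The dHMG-SOX9 MYC-tag list also covered this part, with 4 peaks over 77.8% of the coding bases, the best at rank 5. The results for dHMG-SOX9 in both kinds of list rest on that label. Both cell lines carry Sox9 coding DNA as a transgene, so fragments of the transgene and of the gene cannot be told apart here. In the list of WT-SOX9 with DOX, whose cells also carry it, no MLL3/4 peak lay on the coding exons. The dTA-SOX9 MLL3/4 list had 3 peaks over 84.1% of the coding bases, the best at rank 55, on codons 1-144, 145-229 and 295-493. The dTA-SOX9 MYC-tag list covered codons 2-229 only. The borders of the part deleted in dTA-SOX9 were not set against these codons, so its values rest on its label too.

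The gene lists were then described by the lost share of their no-DOX peaks, beside 43.5% over all. Epidermal keratin, adhesion and basement membrane genes had the lowest, 59 of 187 peaks or 31.6% (95% CI 25.3 to 38.5). Their peaks also ranked high, with a median percentile of 64.7, and the difference at fixed rank bin was -1.97 points (95% CI -7.25 to 3.31). The counts ranged widely among the genes of the list. Cdh1 (E-cadherin) kept all 9 peaks and Itga3 (integrin alpha 3) all 8, which were named after their values were seen, while Dsc3 (desmocollin 3) lost 10 of 15, Itgb1 (integrin beta 1) 6 of 12 and Pkp1 (plakophilin 1) 5 of 19. Krt14 lost 1 of 4 and gained 2.

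Epidermal transcription factors lost 64 of 175 peaks, 36.6% (95% CI 29.8 to 43.9). Gata3 lost 17 of 34, Klf4, a factor of barrier formation, 7 of 12 with 3 gained, Klf5 7 of 16 and Hes1, a NOTCH effector, 7 of 22. NOTCH and EGFR pathway genes lost 56 of 146, 38.4% (95% CI 30.9 to 46.4). Among them the ligand Jag1 lost 17 of 33 and Dll1 5 of 7, the receptors Egfr 6 of 17 and Notch2 5 of 15, and Notch3 lost none of 6 and gained 2. In these 2 lists the lost share was near or below that of all peaks, and at fixed rank bin the intervals of the difference included 0.

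Hair follicle stem cell genes lost 67 of 152, 44.1% (95% CI 36.4 to 52.0). Sox9 accounted for 24 of them, Nfib lost 6 of 9, Runx1 6 of 16 and Tcf7l1, a WNT-responsive repressor, 5 of 11. Id2, an inhibitor of bHLH factors, lost 4 of 5 and gained 4. AP1 genes lost 33 of 76, 43.4% (95% CI 32.9 to 54.6), and only 2 of their 45 dHMG-SOX9 peaks were gained, 4.44% (95% CI 1.23 to 14.8) against 16.7% over all. Jun lost 10 of 16, Atf3 6 of 14, Junb 5 of 9 and Fos 4 of 13. WNT pathway genes lost 29 of 67, 43.3% (95% CI 32.1 to 55.2), with Ctnnb1 at 5 of 9, the receptor Fzd1 at 3 of 4 and Wnt4 at 3 of 8 beside 5 gained. Hippo pathway genes lost 36 of 79, 45.6% (95% CI 35.0 to 56.5), with Ccn2, a YAP target, at 6 of 9, Tead1, the DNA-binding partner of YAP, at 6 of 18 and Amotl2 at 5 of 10 with 3 gained. These 4 shares lay close to that of all peaks.

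Stress response genes lost 42 of 77 peaks, 54.5% (95% CI 43.5 to 65.2), the highest share of the 10 lists. At fixed rank bin this was 12.7 points (95% CI 5.47 to 19.9) above other peaks. It was 1 of 10 lists with no adjustment for their number, and with each peak within 50 kb of the genes counted instead the share was 45.3% of 117. Hsph1, a heat shock protein, lost all 5 peaks, Slc7a11, the cystine carrier, 6 of 8, Gadd45a, a DNA damage gene, 8 of 18 and Mdm2, the ligase of p53, 5 of 9. Gained peaks were 4 of 41, with 1 each at Ddit3, Hmox1, Cdkn1a and Txnrd1. The kept share of these 77 peaks was 45.5% with dHMG-SOX9, 54.5% with dTA-SOX9 and 13.0% with WT-SOX9.

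Mesenchymal transition genes lost 35 of 69, 50.7% (95% CI 39.2 to 62.2), and 3.60 points (95% CI -5.23 to 12.4) remained at fixed rank bin. With each peak within 50 kb of the genes counted instead the share was 38.7% of 62, below that of all peaks. Zeb2, a repressor of E-cadherin, lost 7 of 12, Tgfb2 6 of 9, Cdh2 (N-cadherin) 4 of 10 and Tgfbr2 4 of 11. Snai1 lost 1 of 3 and gained 2. Their kept share was 49.3% with dHMG-SOX9, 65.2% with dTA-SOX9 and 8.70% with WT-SOX9. Genes of the MLL and SWI/SNF complexes lost 16 of 44, 36.4% (95% CI 23.8 to 51.1), although their peaks ranked low with a median percentile of 32.1. At fixed rank bin that was -17.0 points (95% CI -28.8 to -5.24). Kmt2d and Kdm6a, a demethylase of the same complex, named after their values were seen, kept their 1 peak each, Kmt2c 1 of 2, Wdr5 3 of 3 with 1 gained, Paxip1 2 of 2 with 2 gained, and Ash2l lost both of its 2. Arid1b lost 5 of 12 and Smarca2 4 of 7. Peaks within 50 kb of these genes were lost in 43.5% of 85 cases, the same as over all peaks.

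**Figure D5:**
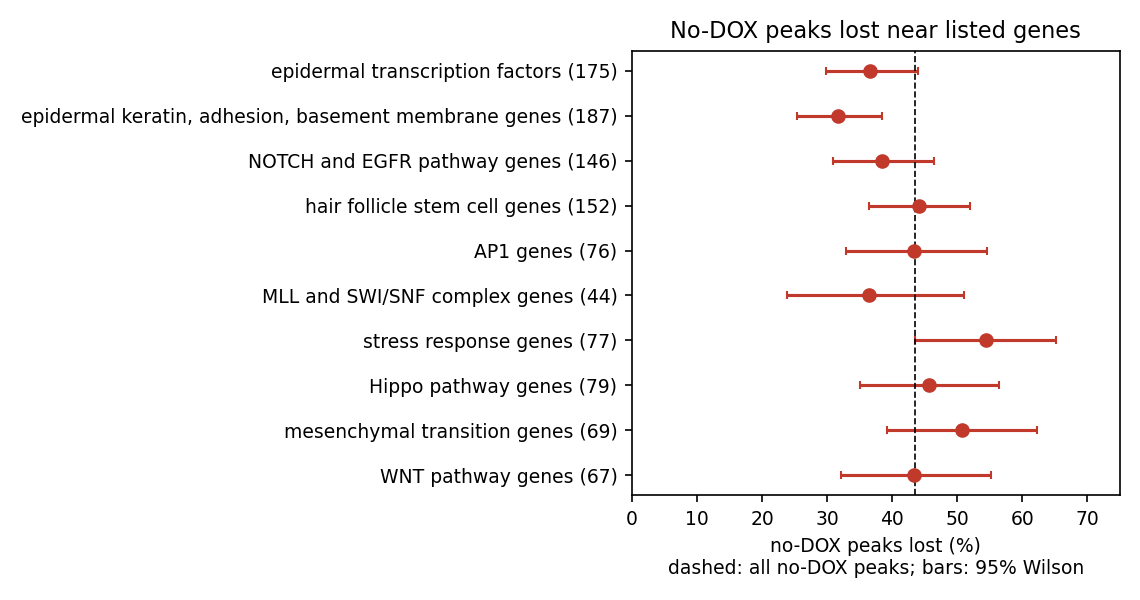
Share of no-DOX peaks lost (%) among the peaks nearest to the genes of 10 lists, with 95% Wilson intervals over peaks and the number of peaks in brackets; the dashed line marks the 43.5% of all no-DOX peaks. The keratin, adhesion and basement membrane list lies lowest at 31.6% and the stress response list highest at 54.5%.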

How the data were processed

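MLL3/4 CNR libraries were crosslinked, read as 40-bp pairs and processed by the study's authors. Per the methods and the submitters' processing notes, reads were trimmed with Skewer, aligned to mm10 with Bowtie2 (2.2.9) and handled with Picard, SAMtools (1.3.1) and deepTools (3.1.2). Fragments up to 120 bp were kept, 2 biological replicates were pooled, and SEACR called peaks in stringent mode with a numeric threshold of 0.01. That setting keeps a fixed share of the signal blocks of a library, so the length of a list depends on how many blocks there are.

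The deposited score of a peak (column 4) is the total signal that the authors' peak caller summed over it. The deposited maximum signal is the highest coverage within it. Both were whole numbers in the pooled cultured MLL3/4 lists and were taken as not scaled, so only ranks within a list were compared. The MYC-tag lists and the replicate 1 list were scaled by the authors, and the latter counts reads, so only its positions were used.

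Peaks on chrM were left out, 3 in each pooled cultured MLL3/4 list and 4 in the replicate 1 list. Overlap of at least 1 bp defined kept peaks. Each peak was placed by the centre of its maximum against GENCODE M21 and given to the protein-coding gene with the nearest start. Words were counted on both strands in GRCm38.p6 sequence, in windows of 101 bp and in control windows 1 kb to each side. Differences at fixed rank bin are means over 10 bins of the list by total signal, weighted by the numbers of peaks with and without the feature, and their normal intervals are too narrow for features or gene lists of few peaks. Shares carry 95% Wilson intervals and single differences 95% Newcombe intervals. The intervals cover counting error only, PCR copies and neighbouring peaks are not independent, and no p-value is given. Python 3.11.15 with pandas 2.3.3, numpy 2.4.6, scipy 1.17.1, pysam 0.24.0 and matplotlib 3.10.9 was used, and the scripts were tested on simulated data.

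The comparison, the gene lists and the words were chosen with earlier results of these data known. Genes were named by a rule, namely 7 loci of the study, the 10 lost and 10 gained peaks of highest total signal, the 5 kept peaks that gained and the 5 that lost most rank, up to 4 genes with most lost and 2 with most gained peaks per list, and the 5 genes with most lost, most gained and only lost peaks. Exceptions are marked in the text, and 2 items that the rule names are not reported here. Lists of SOX9 in skin, a single MYC-tag replicate and the samples of other antibodies were not used here.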

Additional observations from a re-analysis of the deposited data

How the results depend on the processing

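No paired analysis was possible because each group had 1 pooled list and its columns carry no replicate numbers. The limits are the pooling, the unknown depth and the change of cell line together with DOX. Values below are those that moved by more than the counting interval of the share given in the text or changed sign, of 80 that moved and 107 that did not; the cause was not tested unless the setting itself shows it, as with lists cut to other lengths.

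With lists of equal size the lost share was 28.9%, the gained share 27.6%, the lost share 22.4% at promoters and 30.5% away from them, and promoters were 15.2% of lost and 21.4% of kept peaks. AP1 words were in 23.4% of lost windows. D0 peaks lay at 28.8% of lost, 48.7% of kept and 20.8% of gained peaks, W1 peaks at 27.5% of lost and 45.3% of kept, and W2 peaks at 28.4% and 45.9%. For MYC-tag lists the shares of lost, kept and gained peaks were 1.48%, 7.89% and 1.32% without DOX, 14.9%, 34.1% and 12.3% for dTA-SOX9, and 1.99%, 10% and 2.28% for dHMG-SOX9, and those of lost and kept peaks were 2.63% and 8.44% for WT-SOX9. The lost share was 24.6% for epidermal transcription factors, 20.3% for keratin, adhesion and basement membrane genes, 26.3% for NOTCH and EGFR, 33.3% for hair follicle stem cell, 23.4% for AP1, 20.8% for MLL and SWI/SNF, 30.2% for Hippo, 38.3% for mesenchymal and 30.0% for WNT genes.

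Among peaks above the median rank of each list the lost share was 41.8% (43.0% away from promoters), the gained share 14.4%, promoters were 21% of kept and 24.9% of gained peaks, and AP1 words were in 24.3% of lost and 23.3% of kept windows. With total signal above 1800, the lost share was 46.7% (42.3% at promoters and 47.8% away), the gained share 11.3%, promoters were 20.8% of kept and 24.4% of gained peaks, and AP1 words were in 24.7% of lost and 22.9% of kept windows, so that both settings turned the order of lost and kept windows. With peaks within 500 bp merged the lost share was 42.7% (36.0% and 44.4%) and AP1 words were in 22.9% of lost windows. With an overlap of 50% of the shorter peak 17.3% were gained, and D0, W1 and W2 peaks lay at 30.6%, 23.7% and 23.9% of lost peaks, W1 and W2 peaks at 45.8% of kept peaks each, and WT-SOX9 MYC-tag peaks at 1.86% of lost peaks.

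With promoters of 2.5 kb, 45.7% were lost away from them, and promoters were 26.1% of lost, 32.2% of kept and 34.3% of gained peaks. In windows of 100 bp to each side AP1 words were in 30.9%, 33.6% and 25.2% and SOX words in 13.2%, 13.1% and 14.1% of lost, kept and gained windows. Peaks within 50 kb gave mesenchymal genes a lost share of 38.7%. Without no-DOX replicate 2, that is with the longer replicate 1 list, the lost share was 49.4% (42.9% at promoters and 50.9% away), the gained share 14.4%, promoters were 24.9% of gained peaks, and AP1 words were in 21.5% of lost, 21.3% of kept and 16.9% of gained windows, which also turned the order of lost and kept. Under each setting run for both, the lost share was lower at promoters than away from them.

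Added after the data were seen, lists of equal size gave a median difference in percentile of 0.502 for kept pairs and TP63 words in 0.311%, 0.127% and 0.124%, CEBP words in 6.97%, 5.97% and 4.02%, and KLF and SP words in 2.63%, 3.99% and 5.50% of lost, kept and gained windows.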
